A study of Homo sapiens with 6 samples.

Results

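The genes described here encode the proteasome, the protease that degrades ubiquitin-tagged proteins, together with its activators and the chaperones that build it. They were taken as the protein-coding rows whose Ensembl identifier maps to a symbol made of PSMA, PSMB, PSMC, PSMD, PSME, PSMF or PSMG and a number. The rule found 48 genes among 60708 gene rows, of which 19907 are protein-coding. RNA was sequenced from wild-type U2OS cells, a human osteosarcoma line, after 4 days in DMSO, the solvent control, or in 25 µM PDD00017273, called PARGi below. That compound inhibits PARG, the glycohydrolase that removes poly(ADP-ribose) chains from proteins. Each group held 3 biological replicates of the same line, and no other cell line, dose or day was analysed here. The study's title concerns TARG1, an ADP-ribose hydrolase encoded by OARD1, and its removal by the proteasome, so the question for these genes is whether mRNA of the machinery itself differed between the groups.

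The proteasome is a barrel of alpha and beta rings, the 20S core, closed by caps of the 19S type. The alpha subunits (PSMA) form the gates. Among the beta subunits (PSMB), PSMB5, PSMB6 and PSMB7 carry the chymotrypsin-like, caspase-like and trypsin-like sites, and in the immunoproteasome PSMB8, PSMB9 and PSMB10 take their places. The cap unfolds substrates with a ring of ATPases (PSMC) and binds, deubiquitinates and positions them with non-ATPase subunits (PSMD). PSME proteins are alternative activators that open the core without ubiquitin, PSMF1 binds the core as an inhibitor in vitro, and PSMG proteins with PSMD5, PSMD9 and PSMD10 are assembly chaperones. Transcription of most subunits is raised together by NFE2L1 (NRF1) when proteasome activity is short, and the immunoproteasome genes respond to interferon.

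Library totals ranged from 60286931 to 80605145 counts, and each value below is in CPM, the count scaled to library size with trimmed-mean factors of 0.995348 to 1.00684. The test was the quasi-likelihood test of edgeR on the 20409 genes that passed the filter on low counts, and a gene is called where its Benjamini-Hochberg adjusted p over all 20409 genes was under 0.05. The mesenchymal marker list, with VIM and FN1, summed to between 10080 and 10880 CPM in the 6 libraries. Within it COL1A2 (-42.7%), RUNX2 (-17.2%) and SPARC (-5.62%) were called lower, THY1 (20%) was called higher, and the other 3 were not called. The epithelial list summed to 27.45 to 28.58 CPM in DMSO and 18.4 to 21.74 CPM in PARGi, most of it KRT14, which was called lower (-36.5%), while CDH1, at 0.7183 CPM in DMSO and 1.144 in PARGi, was called higher. The part of these marker shifts in the results below was not tested. The haematopoietic list, whose cells carry the immunoproteasome as their usual form, summed to 1.277 to 1.554 CPM over all libraries, nearly all of it PTPRC, while CD3E was at 0 in 5 of the 6 libraries and LYZ in 4 of 6. Its DMSO range, 1.277 to 1.539 CPM, overlapped its PARGi range, 1.366 to 1.554 CPM.

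Proteasome mRNA as a whole was close to level between the groups, and the members that passed the test were all higher in PARGi. The members summed to 5904.6, 5826.2 and 5785.2 CPM in DMSO and to 5997.7, 5987.3 and 6024 CPM in PARGi, so that all 3 PARGi libraries lay above all 3 DMSO libraries. In bulk RNA, fewer cells of a type and less RNA per cell cannot be told apart. Of the 48 members, 46 were tested, 8 were called higher, 0 were called lower and 38 were not called. The background over all 20409 genes was 24.3% called in either direction, 13.2% called higher and 11% called lower, beside 17.4% and 0% of the members. At an unadjusted p under 0.05, 1 member, PSME1, was lower, where 16.6% of all genes were. DESeq2 and limma-voom also called 0 members lower, and each called 10 higher. With an offset for the GC content and merged exon length of each gene, 18 members were called higher, and with upper-quartile scaling 5 were higher and 1 lower. Under those settings 65.1% and 40.5% of all called genes were higher, against 54.5% in the fit reported here.

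The median log2 fold change was 0.032 over the tested members and -0.0070 over all tested genes, a gap of 0.039. The gap was 0.021 among protein-coding genes alone, 0.024 without DMSO replicate 3, 0.071 in DESeq2 and 0.072 with no filter on low counts. Of the 46 members, 34 had a fold change above 0 (73.9%, beside 48.1% of all genes). The 3 PARGi values all lay above the 3 DMSO values for 17 members (37.0%, beside a background of 19.8% of all genes) and all lay below them for 1 (2.17%, beside 18.2%). Proteasome mRNAs varied little among replicates, with a median coefficient of variation of 2.3% in DMSO and 1.91% in PARGi over the 46, where the median over all tested genes was 5.04% and 4.3%. The 95% interval lay wholly inside a 1.2-fold change either way for 39 members (84.8%, beside 48.7% of all genes). Since the members are abundant, the same was counted among genes at a mean of at least 50 CPM, a limit chosen after the values were seen. There all 35 such members, and 93.5% of 4987 genes, had an interval that narrow. Of these members 6 (17.1%) were called higher beside 24.8% of those genes, and 0 were called lower beside 13.1%. The median gap, the shares above 0 and without overlap, and the replicate variation were set against all tested genes alone. Whether they differ from those of genes at a similar level was not tested.

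**Figure D1:**
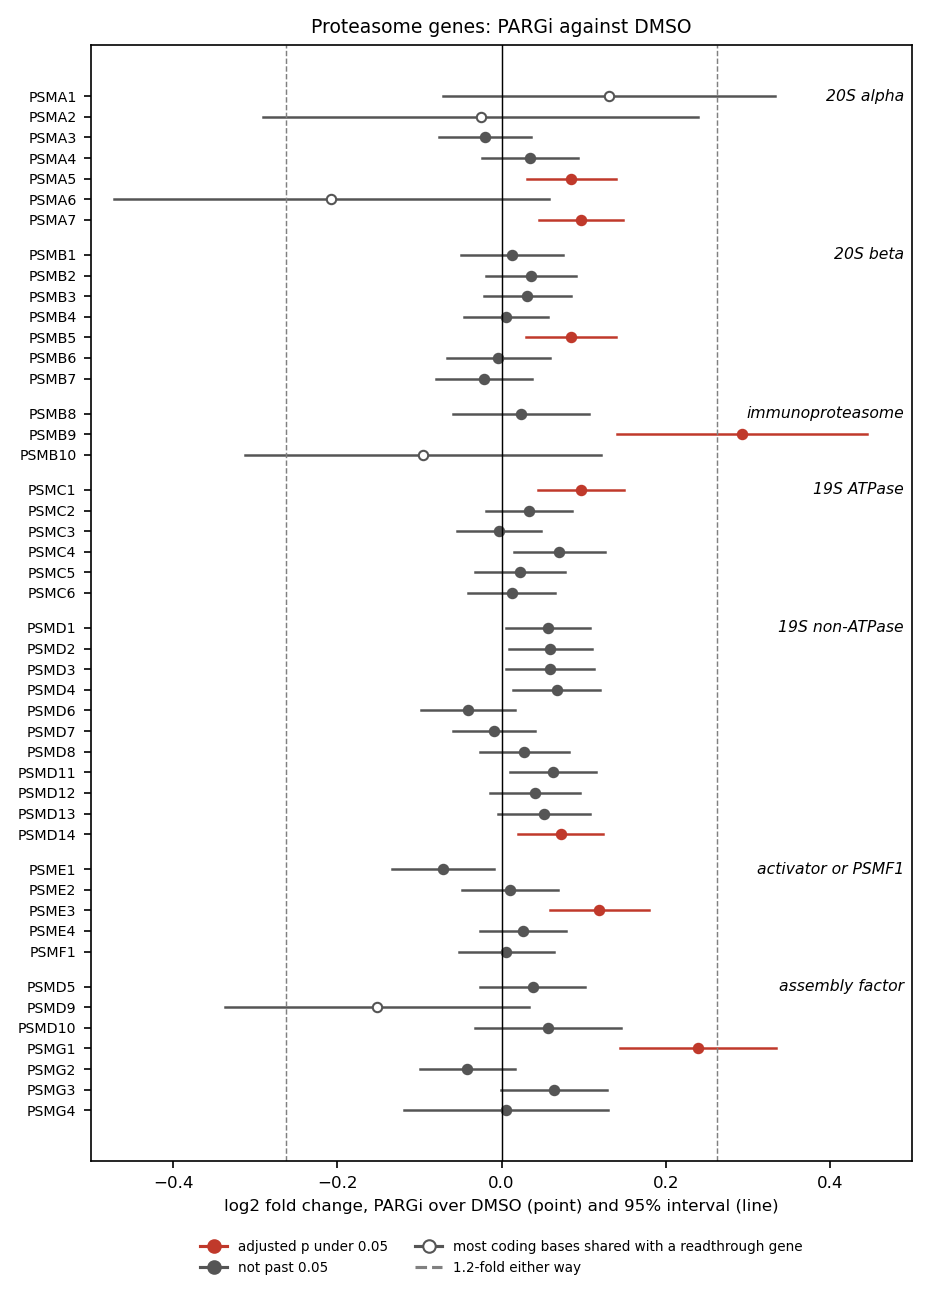
Log2 fold change of each tested member, PARGi against DMSO (x axis), ordered by role (y axis), with its 95% interval from edgeR and n = 3 libraries in each group. The 8 called members lie to the right of 0, led by PSMB9 at 0.29, and the wide intervals belong mostly to members counted at a low level.

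Before the roles, 5 members need a remark on how they were counted. PSMA1, PSMA2, PSMA6, PSMD9 and PSMB10 share 91%, 100%, 89.7%, 68.3% and 60% of their coding bases, on the same strand, with a second gene of GENCODE 29 whose transcripts are all tagged as readthroughs that run on from or into a neighbour. Their 6-library totals were 2070, 1000, 762, 1678 and 1198 counts, and the readthrough rows themselves held 0, 13, 23, 11 and 446. Per kilobase of principal transcript the 5 stood at 1.52 to 3.15 CPM in DMSO, below each of the other 41 tested members, which ranged from 7.397 (PSMB9) to 422.9 (PSMA7) around a median of 67.75. Among the alpha subunits in DMSO, PSMA2 was counted at 1.63 CPM per kilobase. The 4 tested alpha subunits outside this group ranged from 45.83 (PSMA5) to 422.9 (PSMA7). Sharing was also counted over protein-coding genes, the 5 included, less genes whose transcripts are all readthroughs. Of them, 827 shared at least 50% of their coding bases with any gene on the same strand, a limit chosen after the values were seen. Their median over both groups was 0.585 CPM per kilobase against 3.41 for the 17664 genes that share none. STAR's gene counting keeps reads that overlap a single gene. How the authors' counting treated such reads is not given in the sources used here, and its part in these levels was not tested.

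**Figure D2:**
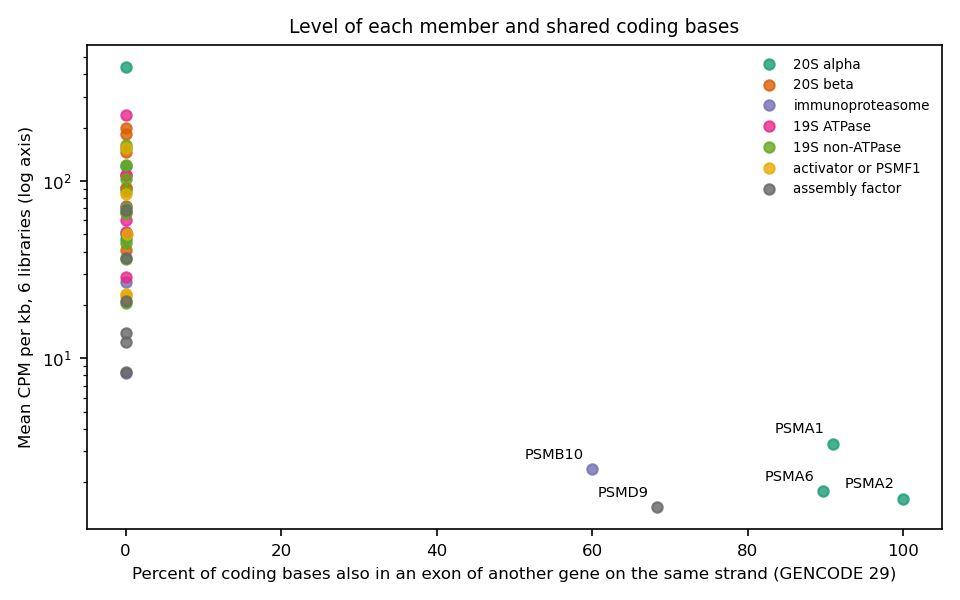
Mean level of each tested member over the 6 libraries, in CPM per kilobase of principal transcript (y axis, log scale). The x axis is the percentage of its coding bases shared with another gene on the same strand. The 5 members that share at least 60% sit under all other members.

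None of the 5 passed the test, and their intervals were wide. PSMA1 had a log2 fold change of 0.13 (adjusted p = 0.371, edgeR) and an interval from -4.80% to 25.9%. PSMA6 was measured at 2.048, 1.884 and 1.962 CPM in DMSO and 1.484, 1.758 and 1.828 CPM in PARGi, the single member whose PARGi libraries all lay lower (log2 fold change -0.21, adjusted p = 0.265, edgeR). PSMA2 stood at -0.026 and PSMD9 at -0.15 on the log2 scale, with adjusted p-values of 0.916 and 0.242 (edgeR). With the 5 left out, 41 tested members held all 8 calls and all 39 narrow intervals, 33 were above 0, and their median was 0.035.

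Among the 20S alpha subunits, PSMA7 and PSMA5 rose and 5 of 7 tested members were not called (median log2 fold change 0.035). PSMA7 (chromosome 20, 62136735 to 62143440, GRCh38), the member with the highest level per kilobase, was at 432.2, 415 and 416.5 CPM in DMSO and 457, 445 and 449.2 CPM in PARGi. Its groups did not overlap, and the rise was 6.92% (log2 fold change 0.097, SE 0.025, adjusted p = 0.00517, edgeR, n = 3 libraries each). With the GC and length offset its log2 fold change was 0.16 (adjusted p = 1.51e-06, edgeR). PSMA5 (chromosome 1, 109399031 to 109426427) was at 172.6, 173.6 and 166.5 CPM in DMSO and 178.7, 179.9 and 185.1 CPM in PARGi, again without overlap. Its rise was 6.08% (log2 fold change 0.085, SE 0.026, adjusted p = 0.0188, edgeR). The PSMA5 call was lost with upper-quartile scaling and without DMSO replicate 3, PARGi replicate 2 or PARGi replicate 3, where its adjusted p reached 0.13 at most. PSMA3 (-0.020) and PSMA4 (0.035) were measured at over 100 CPM in every library and overlapped between groups. PSMA8, the alpha subunit of germ-cell proteasomes, had 0 counts in all 6 libraries, and the limit that a count of 0 allows was 0.0372 to 0.0498 CPM per library, for counting error only.

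In the 20S beta ring, PSMB5 rose and the other 6 members overlapped between groups (median 0.013). PSMB5 (chromosome 14, 23016543 to 23035230), which carries the chymotrypsin-like site that clinical proteasome inhibitors bind, was at 137.2, 138.2 and 130.9 CPM in DMSO and 143.3, 142.6 and 144.9 CPM in PARGi. The rise was 6.05% (log2 fold change 0.085, SE 0.027, adjusted p = 0.0222, edgeR), and the call was lost in 6 of 16 alternative settings. These included the fits without DMSO replicate 3 (adjusted p = 0.0968, edgeR), PARGi replicate 1 (0.0617), PARGi replicate 2 (0.0586) and PARGi replicate 3 (0.101). With the GC and length offset its log2 fold change was 0.16 (adjusted p = 1.22e-05, edgeR). The other catalytic subunits did not move with it by this test. PSMB6 was at 80.87, 75.53 and 78.37 CPM in DMSO and 80.63, 77.36 and 76.29 CPM in PARGi, and PSMB7 had a log2 fold change of -0.021 (adjusted p = 0.650, edgeR). Their signs turned with the GC and length offset, to 0.066 and 0.049. The structural subunits PSMB1 to PSMB4 lay between 0.0051 (PSMB4) and 0.036 (PSMB2) and were not called.

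The immunoproteasome subunits did not move as a group: PSMB9 rose, and neither PSMB8 nor PSMB10 was called. PSMB9 (chromosome 6, 32844136 to 32859585), the subunit that replaces PSMB6, was at 6.176, 5.292 and 5.886 CPM in DMSO and 7.553, 6.831 and 6.951 CPM in PARGi, from 2684 counts in all. Every PARGi library lay above every DMSO library, and the rise of 22.5% was the largest of the 46 tested members (95% interval 10.2% to 36.2%, log2 fold change 0.29, SE 0.074, adjusted p = 0.00476, edgeR). PSMB8 (chromosome 6, 32840717 to 32844703), which replaces PSMB5 and lies in the same part of the class II region of the major histocompatibility complex, was at 29.23, 30.92 and 29.35 CPM in DMSO and 30.91, 31.38 and 28.77 CPM in PARGi. Its interval ran from -4% to 7.70% (adjusted p = 0.723, edgeR). PSMB10, which replaces PSMB7, had an interval from -19.5% to 8.72% (adjusted p = 0.565, edgeR) and is 1 of the 5 members with shared coding bases. PSMB11, the thymus-specific beta subunit, had 1 count, in PARGi replicate 3.

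As a percentage of the constitutive subunit it replaces, PSMB9 was at 7.64%, 7.01% and 7.51% of PSMB6 in DMSO and 9.37%, 8.83% and 9.11% in PARGi, on the CPM scale. All PARGi libraries were higher, with a two-sided exact permutation p of 0.1, the smallest that 3 against 3 libraries can give (0.3 after adjustment over 3 such ratios). PSMB8 was at 21.3%, 22.4% and 22.4% of PSMB5 in DMSO and 21.6%, 22% and 19.9% in PARGi, with overlap (exact permutation p = 0.3, adjusted 0.45). PSMB10 to PSMB7 overlapped as well (exact permutation p = 0.5).

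PSMB9 shares its promoter region with TAP1, which encodes a subunit of the peptide transporter that carries proteasome products into the endoplasmic reticulum, and TAP1 rose too. It was at 24.71, 27.09 and 25.84 CPM in DMSO and 31.98, 34.37 and 32.56 CPM in PARGi, a rise of 27.5% (log2 fold change 0.35, SE 0.041, adjusted p = 6.6e-07, edgeR). Of 14 antigen-processing genes, 3 were called higher, 0 lower and 11 not called, beside 13.2% higher and 11% lower over all tested genes. Their median was 0.015, so the list as a whole lay near the all-gene median of -0.0070. At an unadjusted p under 0.05, 0 of them were lower in edgeR, and DESeq2 (2 higher) and limma-voom (3 higher) also called 0 lower. With the GC and length offset 5 were called higher and 0 lower. The other called genes were TAP2, the partner of TAP1 (0.17, adjusted p = 0.0299, edgeR), and IRF1, a transcription factor of interferon responses (0.19, adjusted p = 0.00728, edgeR). NLRC5 (-0.074) and B2M (0.0075), picked after their values were seen, were not called. All PARGi libraries of NLRC5 lay below its DMSO libraries, as was so for 18.2% of all tested genes. The TAP2 call was lost in 6 of 16 alternative settings (adjusted p up to 0.121) and the IRF1 call in 1 (0.0683), whereas TAP1 and PSMB9 kept theirs in all 16.

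**Figure D3:**
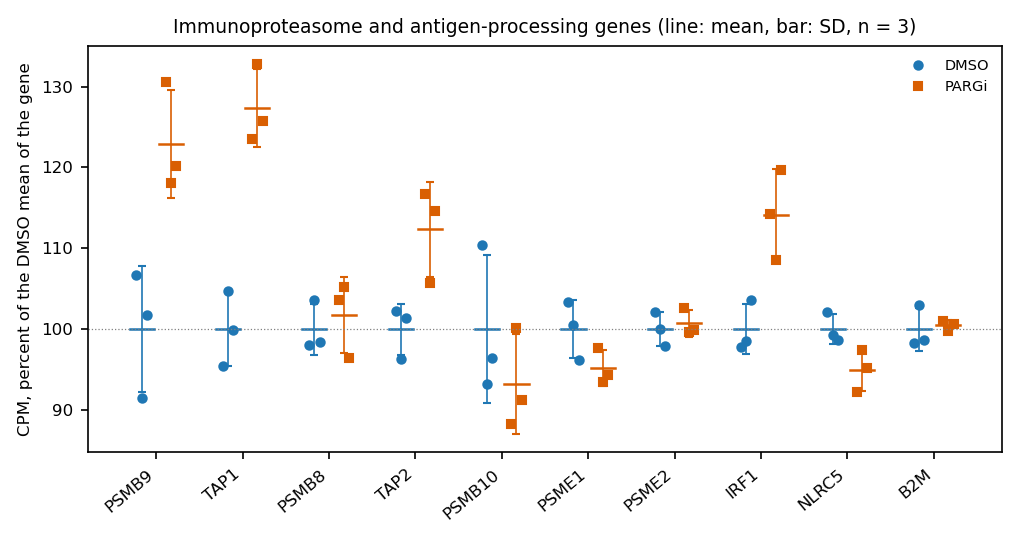
CPM of each library as a percentage of the gene's DMSO mean (y axis) for immunoproteasome, activator and antigen-processing genes (x axis), points for libraries, lines for means and bars for SD, n = 3 each. PSMB9, TAP1, TAP2 and IRF1 stand above their DMSO points in all 3 PARGi libraries and NLRC5 stands below, while PSMB8, PSMB10, PSME1, PSME2 and B2M overlap.

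The promoter sequences of PSMB9, TAP1 and PSMB8 are printed because, of these neighbours on chromosome 6, PSMB9 and TAP1 were called and PSMB8 was not, and that of PSMG1 because its rise was the next largest among the members. Each runs from 250 bases before to 50 bases after a RefSeq start site (GRCh38.p14), 5′ to 3′ along the gene's own strand. Capitals mark the motifs searched on both strands: TGACNNNGC, the core of the antioxidant response element to which NFE2L1 and NFE2L2 bind, CCAAT, and a pair of GAAA half-sites with 2 bases between them, which interferon regulatory factors bind. The windows are chr6:32853942-32854241 on the plus strand for PSMB9, chr6:32853655-32853954 on the minus strand for TAP1, chr6:32843998-32844297 on the minus strand for PSMB8 (the second of its RefSeq starts) and chr21:39183402-39183701 on the minus strand for PSMG1.
PSMB9: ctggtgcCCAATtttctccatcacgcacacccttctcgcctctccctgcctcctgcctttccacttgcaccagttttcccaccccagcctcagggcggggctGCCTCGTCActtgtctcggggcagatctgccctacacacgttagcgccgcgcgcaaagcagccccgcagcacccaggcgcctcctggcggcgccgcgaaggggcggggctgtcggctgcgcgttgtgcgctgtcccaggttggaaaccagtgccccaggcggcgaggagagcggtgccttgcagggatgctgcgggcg
TAP1: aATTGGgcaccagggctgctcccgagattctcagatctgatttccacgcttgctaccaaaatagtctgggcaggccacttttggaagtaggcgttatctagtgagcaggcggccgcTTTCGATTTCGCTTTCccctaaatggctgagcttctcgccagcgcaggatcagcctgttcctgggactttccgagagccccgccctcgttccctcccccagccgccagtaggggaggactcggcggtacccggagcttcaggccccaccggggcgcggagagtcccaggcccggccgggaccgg
PSMB8: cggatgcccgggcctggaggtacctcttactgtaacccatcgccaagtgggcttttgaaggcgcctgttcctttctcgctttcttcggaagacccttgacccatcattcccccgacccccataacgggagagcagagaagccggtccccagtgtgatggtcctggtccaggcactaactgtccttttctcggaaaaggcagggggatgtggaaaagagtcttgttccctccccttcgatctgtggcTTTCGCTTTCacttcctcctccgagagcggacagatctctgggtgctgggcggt
PSMG1: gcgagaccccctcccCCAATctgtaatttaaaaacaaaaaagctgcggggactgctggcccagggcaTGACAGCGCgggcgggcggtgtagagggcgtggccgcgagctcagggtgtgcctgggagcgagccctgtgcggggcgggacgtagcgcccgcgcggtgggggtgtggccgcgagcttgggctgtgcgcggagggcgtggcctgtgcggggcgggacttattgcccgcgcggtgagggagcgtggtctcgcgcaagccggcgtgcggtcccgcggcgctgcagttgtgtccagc

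The start sites of these PSMB9 and TAP1 windows lie 488 bases apart and point away from each other. The windows therefore meet at their far ends, where the CCAAT match of PSMB9 and that of TAP1 (ATTGG on its own strand) are the same bases. The TAP1 window holds 2 overlapping GAAA pairs on the opposite strand, whose first bases lie at -134 and -128 from its start. The PSMB9 window holds none, but has TGACNNNGC on the opposite strand at -148. The 2 TAP1 pairs lie between the start sites, beyond the far end of the PSMB9 window, so they were not counted for PSMB9. PSMB8, which was not called, has a GAAA pair across the start of the window printed, from -4. Another RefSeq window of TAP1 (chr6:32852712-32853011) and the other window of PSMB8 (chr6:32844630-32844929) held no match to any of the motifs. PSMG1 has CCAAT at -235 and TGACNNNGC at -183. A match describes letters in a window and not binding.

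RefSeq windows were found for 42 of the 48 members, 51 windows in all, including 7 of the 8 called members (PSMA7 had none). The GAAA pair stood in 13.7% of member windows and 3.57% of 35116 promoter windows of the same length. Its 7 members were PSMA4, PSMB4, PSMB8, PSMB10, PSME1, PSME2 and PSMG4, of which 0 were called, beside 17.4% of all tested members. PSMB9 is outside this count by the limit of its window, since the TAP1 pairs lie just beyond it. TGACNNNGC stood in 29.4% of member windows beside 13.3% of all, and among called members in PSMB9 and PSMG1. CCAAT stood in 39.2% of member windows beside 34.6% of all. Per gene, where a match in any window counts, it stood in 20 of the 42 members with a window, 6 of them among the 7 called. No such share per gene was counted over all genes, so these counts have no background beside them.

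In the ring of 19S ATPases, PSMC1 rose and the other 5 were not called (median 0.028). PSMC1 (chromosome 14, 90256495 to 90275429) was at 125.3, 121.6 and 122.6 CPM in DMSO and 131.1, 131.1 and 133 CPM in PARGi, without overlap. The rise was 6.93% (log2 fold change 0.097, SE 0.025, adjusted p = 0.00668, edgeR). On the opposite strand, exons of NRDE2 cover 47.7% of the PSMC1 coding bases, and the strand setting of the counting is not given in the sources used here. NRDE2 itself fell, with a log2 fold change of -0.22 (adjusted p = 0.00021, edgeR), and stood at 28.1 CPM in DMSO and 24.2 in PARGi. PSMC1 also has 13 pseudogenes among the rows, taken by their symbols, which together held 1.21% as many counts. PSMC4 lay just outside the threshold at 0.071 (adjusted p = 0.0603, edgeR) with groups that did not overlap, and PSMC2 did not overlap either (0.033). PSMC3, with the highest level per kilobase of the ring at 236.9 CPM, had a log2 fold change of -0.0029.

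The 11 non-ATPase cap subunits had the highest median of the roles, 0.057, although only PSMD14 was called. In 8 of the 11 (PSMD1, PSMD2, PSMD3, PSMD4, PSMD11, PSMD12, PSMD13 and PSMD14) all PARGi libraries lay above all DMSO libraries, by 0.041 to 0.072 on the log2 scale. Over all tested genes the share was 19.8%, and none was counted for genes at a similar level. PSMD14 (chromosome 2, 161308038 to 161411717), the metalloprotease that cuts ubiquitin chains from substrates as they enter, was at 125.5, 125.5 and 124.8 CPM in DMSO and 129.8, 133.3 and 131.7 CPM in PARGi. Its rise was 5.11% (log2 fold change 0.072, SE 0.025, adjusted p = 0.0389, edgeR), and the call was lost in 10 of 16 alternative settings, among them each of the 6 fits with 1 library left out, where the adjusted p lay between 0.0533 and 0.166 (edgeR). With upper-quartile scaling its log2 fold change was 0.047. PSMD4, a ubiquitin receptor, came next at 0.067 (adjusted p = 0.0579, edgeR). PSMD2, the large scaffold subunit with the highest level per kilobase of this role, was at 545.6, 530.5 and 553.3 CPM in DMSO and 556.8, 569.5 and 571.7 CPM in PARGi (adjusted p = 0.0781, edgeR). PSMD6, PSMD7 and PSMD8 overlapped between groups, PSMD6 with the lowest value at -0.041 (adjusted p = 0.313, edgeR). All 11 intervals lay inside a 1.2-fold change.

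Among the activators PSME3 rose, and neither PSME1 nor PSME2, the interferon-inducible pair, was called. PSME3 (chromosome 17, 42824385 to 42843758), the nuclear activator PA28-gamma, was at 152.6, 139.3 and 148.1 CPM in DMSO and 158.8, 158.4 and 160.5 CPM in PARGi. The groups did not overlap, and the rise was 8.58% (log2 fold change 0.12, SE 0.029, adjusted p = 0.00396, edgeR). PSME1, a subunit of PA28-alpha-beta, was at 89.71, 87.23 and 83.46 CPM in DMSO and 84.78, 81.09 and 81.93 CPM in PARGi, with overlap. Its log2 fold change of -0.072 (adjusted p = 0.0869, edgeR) was the lowest outside the members with shared coding bases, and it was called lower with upper-quartile scaling, among protein-coding genes alone and without DMSO replicate 3. With the GC and length offset it was at -0.0031 (adjusted p = 0.954, edgeR). Its partner PSME2 (0.010, adjusted p = 0.844), PSME4, the PA200 activator (0.026, adjusted p = 0.508), and PSMF1 (0.0059, adjusted p = 0.912) were near 0 in edgeR.

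Of the 7 assembly factors, PSMG1 rose and 6 were not called (median 0.038). PSMG1 (chromosome 21, 39174769 to 39183851), which pairs with PSMG2 to build the alpha ring, was at 16.76, 15.89 and 16.77 CPM in DMSO and 19.69, 18.63 and 20.06 CPM in PARGi. The PARGi libraries all lay higher, by 18.0% (95% interval 10.5% to 26.1%, log2 fold change 0.24, SE 0.046, adjusted p = 0.000396, edgeR), the smallest p of the 46 tested members. Its partner PSMG2 was at 118.8, 120.8 and 113.1 CPM in DMSO and 112.5, 114.8 and 115.2 CPM in PARGi, with overlap (-0.042, adjusted p = 0.308, edgeR). Per kilobase, PSMG1 stood at 7.649 CPM in DMSO, the lowest of the assembly factors outside the shared group, and PSMG2 at 69.73, the highest. PSMG3 (0.064) and PSMG4 (0.0060), a second chaperone pair of the core, were not called, nor were the cap chaperones PSMD5 (0.038) and PSMD10, also called gankyrin (0.056, adjusted p = 0.383, edgeR).

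**Figure D4:**
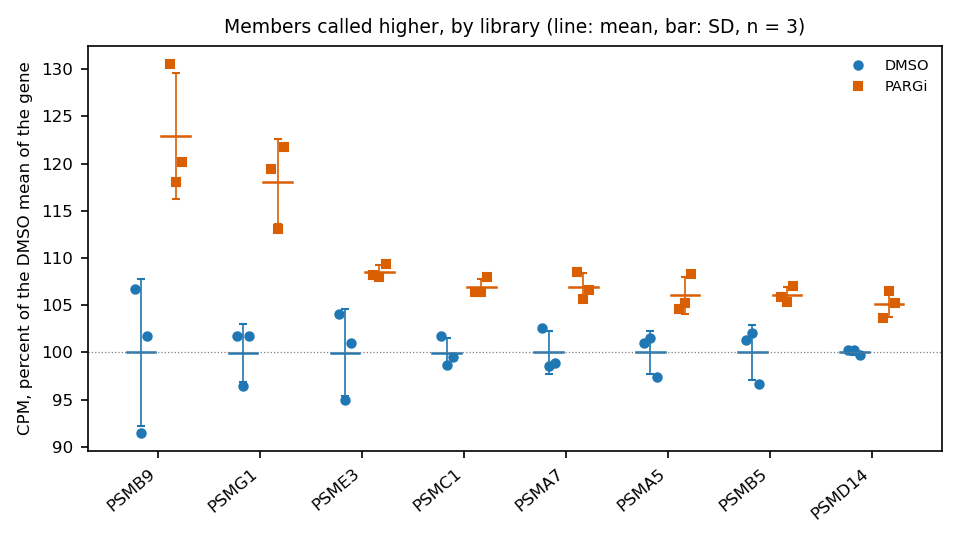
CPM of each library as a percentage of the gene's DMSO mean (y axis) for the 8 called members (x axis), points for libraries, lines for means and bars for SD, n = 3 each. The rises of PSMB9 (22.5%) and PSMG1 (18.0%) exceed those of the other 6, which lie between 5.11% and 8.58%, and no gene's groups overlap.

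Across the 33 uncalled members outside the shared group, log2 fold changes ran from -0.072 (PSME1) to 0.071 (PSMC4), and no 95% interval reached beyond -8.84% (PSME1) or 10.6% (PSMD10). In the order of levels per kilobase in DMSO, the medians were 104.7 CPM for 20S beta, 86.53 for the 4 usable 20S alpha members, 70.21 for the non-ATPases, 65.53 for the ATPases, 50.25 for the activators and PSMF1, 17.11 for 6 assembly factors and 16.97 for PSMB8 and PSMB9. The ranges of neighbouring roles in that order overlap. In PARGi the medians were 111, 86.23, 73.02, 67.57, 50.61, 17.66 and 18.05 CPM per kilobase, which puts the immunoproteasome pair above the assembly factors.

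Genes that work with the proteasome were described by lists. For each list below, the background over all 20409 tested genes was 13.2% called higher and 11% called lower. Among 13 partners of the particle, 4 rose and 1 fell (median 0.035). The risers were PAAF1, a cap assembly chaperone (0.18, adjusted p = 0.0107, edgeR), UCHL5, a deubiquitinase of the cap (0.14, adjusted p = 0.0210, edgeR), POMP, the chaperone of core maturation (0.084, adjusted p = 0.0444, edgeR), and UBE3C, a ligase that acts on stalled substrates (0.079, adjusted p = 0.0351, edgeR). AKIRIN2, which carries proteasomes into the nucleus, fell by 0.11 on the log2 scale (adjusted p = 0.0375, edgeR). The calls of this list depended on the setting, with 2 higher and 0 lower in DESeq2, 1 and 1 with upper-quartile scaling, and 6 and 0 with the GC and length offset. Of 16 alternative settings PAAF1 lost its call in 1, UCHL5 in 4, UBE3C in 7, POMP in 8 and AKIRIN2 in 10. With the offset POMP was at 0.14 and AKIRIN2 at -0.044. USP14 (0.077, adjusted p = 0.0532, edgeR), the ubiquitin receptor ADRM1 (0.035) and the small cap subunit SEM1 (-0.026) were not called.

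The regulators that raise proteasome genes were not called themselves: NFE2L1 had a log2 fold change of 0.032 (adjusted p = 0.454, edgeR) and NFE2L2 of 0.054 (adjusted p = 0.205, edgeR). Of 12 tested genes of that route, 4 rose and 0 fell (median 0.052), beside 13.2% and 11% of all tested genes. DESeq2 and limma-voom likewise called 4 higher and 0 lower, and at an unadjusted p under 0.05 edgeR had 0 lower. They included FBXW7 (0.19, adjusted p = 0.000356, edgeR) and BTRC (0.15, adjusted p = 0.00306, edgeR), receptors of ubiquitin ligases that target NFE2L1, and MAFF (0.19, adjusted p = 0.0011, edgeR), a small MAF partner. VCP, the ATPase that extracts NFE2L1 from the endoplasmic reticulum, was at -0.013 (adjusted p = 0.736, edgeR). NFE2L1 is controlled by processing and turnover of its protein, which mRNA levels do not show.

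No gene for ubiquitin itself was called higher. Of 6 ubiquitin and E1 genes, RPS27A was called lower (-0.077, adjusted p = 0.0427, edgeR) with groups that overlapped, and 0 were called higher, with UBB at -0.035 (median -0.038). At an unadjusted p under 0.05, 0 were higher in edgeR. DESeq2 and limma-voom each called 0 higher and 2 lower, and with the GC and length offset 0 were called either way. RPS27A lost its call in 7 of 16 alternative settings and was at -0.051 with the offset. Among 15 tested shuttle and p97 factors, PLAA rose (0.11, adjusted p = 0.00371, edgeR) and UBQLN2, a shuttle that carries ubiquitinated proteins to the proteasome, fell by 0.16 on the log2 scale (adjusted p = 0.000381, edgeR), with a median of 0.0093. With the GC and length offset 4 of them were called higher and 1 lower, and with upper-quartile scaling 1 and 2. A list of 10 genes joins ubiquitin ligases and partners that act on ADP-ribose signals with OARD1 and PARG, the inhibitor's target (0.047, adjusted p = 0.328, edgeR). In it RNF114 rose (0.092, adjusted p = 0.0142, edgeR) and RNF146, the ligase that binds poly(ADP-ribose), was at 0.022 (adjusted p = 0.767, edgeR). The RNF114 call was lost in 2 of 16 alternative settings. OARD1 mRNA fell by 0.18 on the log2 scale (adjusted p = 0.000642, edgeR).

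Of the 8 called members, PSMA7, PSMB9, PSMC1, PSME3 and PSMG1 were called in all 16 alternative settings, which changed the tool, scaling, filter or design or left out a library, and these were also the 5 called at an adjusted p under 0.01. PSMA5, PSMB5 and PSMD14, with the largest adjusted p-values of the 8, were lost in 4, 6 and 10 of them.

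**Figure D5:**
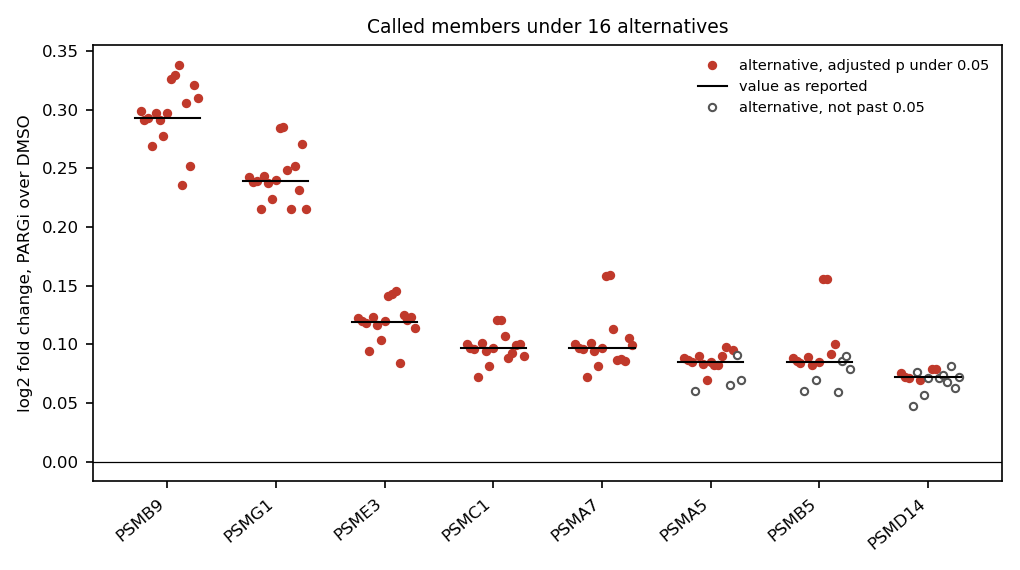
Log2 fold change of each called member (x axis) as reported (line) and under 16 alternative settings (points, filled where the adjusted p was under 0.05 and open where not). All values lie above 0, and open points occur for PSMA5 (4), PSMB5 (6) and PSMD14 (10).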

How the data were processed

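Total RNA of 3 DMSO and 3 PARGi biological replicates of U2OS cells was made into stranded total RNA libraries, per the labels' protocols. The authors deposited 1 table per library of whole-number counts of reads per gene. The submitters' processing notes name cutadapt 1.18, STAR 2.7.3a, SAMtools 1.9, deepTools, DESeq2 and hg38. The annotation release, the strand setting and the treatment of reads over several genes are not given in the sources used here. No row lacked a gene (0 rows), and no column of another sample was present.

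From these counts, genes were filtered (filterByExpr), scaled by TMM and tested between the groups with edgeR 4.0.16 (quasi-likelihood, two-sided, treatment as the single term, common biological coefficient of variation 2.7%) in R 4.3.3, with Benjamini-Hochberg adjustment over 20409 genes. SE is the absolute log2 fold change over the square root of F, and intervals are 95%. Exact permutation tests used SciPy 1.17.1. Symbols were paired with 60507 of 60708 identifiers. GENCODE 29 (GRCh38), not known to be the authors' release, gave biotypes, lengths and coding overlaps and held 58440 of the identifiers. Promoters came from RefSeq (GRCh38.p14), and 6 members had none there. The script for the gene tests was checked on simulated counts.

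All members could be named: called ones with their values in every library, the catalytic subunits, PSMD10, PSMF1 and the activators always, the rest by range. In the related lists a set of genes such as NFE2L1 and OARD1 was always named, less an item that is not reported here, with up to 3 called in each direction by smallest p. The members and lists were chosen with earlier results of these data known. Alternatives were DESeq2 1.42.0, limma-voom (limma 3.58.1), DESeq2 size factors, upper-quartile scaling, no filter, a minimum of 10 counts per library, a fit to protein-coding genes, a replicate block, an offset for GC content and length (loess span 0.3), both together, a threshold of 0.01, and each of 6 libraries left out. No 2 libraries of a group agreed within sampling noise.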

Additional observations from a re-analysis of the deposited data

How the results depend on the processing

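The p-values measure the spread among 3 biological replicates of 1 line in each group, and the depth cannot resolve members under about 5 CPM to better than the intervals given. Members called higher numbered 8, and 5 with upper-quartile scaling, 18 with the GC and length offset, 17 with the replicate block and that offset, 5 at an adjusted p under 0.01, and 5 to 8 with 1 library left out (5 without PARGi replicate 2 and 5 without PARGi replicate 3). Members called lower numbered 0, and 1 with upper-quartile scaling, 1 among protein-coding genes alone, and 0 to 1 with 1 library left out (1 without DMSO replicate 3). All genes called numbered 4951, and 3117 at an adjusted p under 0.01. Leaving out 1 library gave 3607 to 4848. The same-numbered libraries did not deviate together (correlations -0.0827 to -0.0203 over 13390 genes). These values gave no sign that the numbers pair the samples, though 3 libraries in each group cannot settle it. With the replicate block 7 members were higher and 4553 genes were called.

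The members and list genes followed across settings that changed sign were uncalled ones, and the cause was not tested. PSMB6 went from -0.0041 to 0.00076 with no filter, 0.066 with the GC and length offset and 0.067 with the block and offset, and to between -0.028 and 0.018 with 1 library left out. PSMB7 went to 0.049 with the offset and 0.049 with the block and offset, VCP to 0.0094 and 0.0095, and UBB to 0.039 and 0.039. With upper-quartile scaling PSMB8 went to -0.00055, PSMF1 to -0.019, PSME2 to -0.015 and RNF146 to -0.0028, and among protein-coding genes alone PSMF1 went to -0.0094 and PSME2 to -0.0053. With 1 library left out PSMB8 ranged from -0.0015 to 0.064, PSMF1 from -0.013 to 0.025, PSME2 from -0.0070 to 0.023, PSMA2 from -0.13 to 0.10, SEM1 from -0.054 to 0.0044 and RNF146 from -0.0090 to 0.056.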
